A study of Mus musculus with 14 samples.

Results

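Cyclin-dependent kinases drive a cell through its division cycle, cyclins switch them on, and CDK inhibitors hold them back. Most cells of the adult hippocampus, the neurons above all, have left the cycle for good, and division goes on mainly in progenitor cells of the dentate gyrus and in glial precursors. The 10 genes described here were picked by name from the counts table of 24421 genes. They are the CDK inhibitors Cdkn1a, Cdkn1b, Cdkn1c and Cdkn2c, the D-type cyclins Ccnd1, Ccnd2 and Ccnd3, the securin gene Pttg1, and the proliferation markers Mki67 and Top2a. All 10 passed the filter on low counts, as did 14897 genes of the table. Cdkn1a and Pttg1 were chosen for their lower level in mice labelled LPAR2-/-, so that their genotype difference is given as a description and supports nothing. The question was whether they changed alone or together with other cell cycle genes.

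Hippocampal RNA of 7 mice labelled LPAR2-/- and 7 wild-type (WT) mice was sequenced, with 1 library per mouse. LPAR2 is a receptor for lysophosphatidic acid, and the knockout, present in all cells, removes the latter part of exon 2 of Lpar2. All mice were naive males of strain 129.C57Bl6. By the labels they were 10 to 12 weeks old, but the deposited design speaks of older mice, and the study names the dentate gyrus in its results but the whole hippocampus in its methods. The homozygous knockouts and the controls of mixed C57BL/6 and 129/SvJ background were bred as parallel colonies, so that genotype and colony cannot be told apart. Values per mouse are counts per 1000000 counted reads (CPM) after normalization by the trimmed mean of M-values (TMM), and a gene was called changed at an adjusted p under 0.05 in the quasi-likelihood test of edgeR.

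The library of a mouse held 15434620 to 23258949 counted reads. Lpar2 itself went against the labels. It had 144 to 234 counts in the 7 libraries labelled LPAR2-/- and 27 to 66 in the 7 WT libraries (log2 fold change 2.01 ± 0.16 SE, adjusted p = 8.2e-07), and counts per gene do not separate the deleted part of exon 2 from the rest. All directions given here therefore refer to the labels. Markers of dentate granule cells summed to 723 to 1140 CPM in mice labelled LPAR2-/- and 725 to 1099 CPM in WT mice, and the sums of all 16 cell type lists overlapped between the genotypes. LPAR2-/- mouse 2 stood apart in choroid plexus markers (288 CPM, against a median of 36.4 CPM in its group and at most 36.6 CPM in WT mice). LPAR2-/- mouse 3 stood apart in oligodendrocyte markers (3878 CPM, against at most 2029 CPM in WT mice), and WT mouse 2 in CA1 markers (325 CPM). Fewer cells of a type and less RNA per cell cannot be told apart in such bulk tissue.

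The promoters of Cdkn1a, Pttg1, Mki67 and Top2a are shown because these genes stand for the contrast the data turn on, the pair chosen for its lower RNA in the mice labelled LPAR2-/- and a pair of proliferation markers. RefSeq (GRCm38.p6, the build called mm10) gave promoters for 7 of the 10 members, each with 250 bases before and 50 bases after a start site. Cdkn1c, Ccnd1 and Ccnd2 had no entry in the promoter set used here, although all of them have rows in the counts table. Capitals mark 4 patterns, each searched on both strands. The pattern CATGNNNNNNCATG holds a pair of cores at the spacing of a p53 site. The letters CCAAT make up the box of that name. The letters TTTGAA occur in cell cycle elements of mitotic genes, and TTCGAA is a variant of them. Cdkn1a has a pair of start sites in RefSeq, and the window of the upstream one is printed.
Cdkn1a, chr17:29090729-29091028, plus strand: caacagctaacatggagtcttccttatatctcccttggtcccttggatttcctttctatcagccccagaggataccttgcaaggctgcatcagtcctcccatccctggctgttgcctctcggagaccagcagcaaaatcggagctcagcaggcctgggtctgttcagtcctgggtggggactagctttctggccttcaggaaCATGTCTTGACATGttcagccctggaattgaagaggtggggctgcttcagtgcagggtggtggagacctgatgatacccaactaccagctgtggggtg
Pttg1, chr11:43425932-43426231, minus strand: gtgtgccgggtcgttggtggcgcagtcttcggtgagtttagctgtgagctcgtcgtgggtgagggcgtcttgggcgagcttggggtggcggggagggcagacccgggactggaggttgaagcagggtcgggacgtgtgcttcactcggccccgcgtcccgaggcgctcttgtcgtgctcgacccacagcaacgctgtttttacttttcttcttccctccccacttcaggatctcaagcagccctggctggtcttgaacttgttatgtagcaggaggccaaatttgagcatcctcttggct
Mki67, chr7:135716330-135716629, minus strand: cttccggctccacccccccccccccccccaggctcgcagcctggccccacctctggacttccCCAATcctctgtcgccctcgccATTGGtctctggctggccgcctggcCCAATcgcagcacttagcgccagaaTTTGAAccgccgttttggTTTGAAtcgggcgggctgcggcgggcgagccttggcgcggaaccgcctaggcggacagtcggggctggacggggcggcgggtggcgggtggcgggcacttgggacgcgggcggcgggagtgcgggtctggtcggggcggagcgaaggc
Top2a, chr11:99024140-99024439, minus strand: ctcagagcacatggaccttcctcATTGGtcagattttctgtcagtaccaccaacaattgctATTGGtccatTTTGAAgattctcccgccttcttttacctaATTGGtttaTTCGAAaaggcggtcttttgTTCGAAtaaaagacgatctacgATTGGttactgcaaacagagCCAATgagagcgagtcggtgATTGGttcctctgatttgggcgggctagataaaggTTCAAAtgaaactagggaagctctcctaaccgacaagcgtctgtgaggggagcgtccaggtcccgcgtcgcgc

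The Cdkn1a window held 1 match to CATGNNNNNNCATG, whose first base lay 48 bases before the start site. The window of the other Cdkn1a start site, chr17:29093519-29093818, held none of the 4 patterns. Of all 32851 promoters of the same length, 0.712% held that pattern. Of the other patterns, Top2a held CCAAT 6 times, TTTGAA 2 times and TTCGAA 2 times, and Mki67 held CCAAT 3 times and TTTGAA 2 times. The window of Cdkn1b, which is not printed, held CCAAT 3 times as well and none of the other patterns. Over all promoters, 3.37% held CCAAT at least 3 times, 17.9% held TTTGAA and 1.56% held TTCGAA at least once. At least 4 times CCAAT was held by 1.06%. TTTGAA occurred at least 2 times in 2.31% and TTCGAA at least 2 times in 0.0304%. These patterns did not overlap each other in the printed windows. The printed Pttg1 window held none of the 4 patterns, which says only that these letters are not in it. A match is a description of the sequence and not a shown site.

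Cdkn1a encodes a CDK inhibitor that stops the cycle after DNA damage and is a classical target of p53. It was at 3.5, 4.0, 4.9, 4.1, 4.7, 3.9 and 3.3 CPM in LPAR2-/- mice 1 to 7. In WT mice 1 to 7 it was at 6.5, 9.3, 7.5, 12.1, 7.3, 8.9 and 6.5 CPM. Every mouse labelled LPAR2-/- lay below every WT mouse, and WT mouse 4 was the highest of all. The means were 4.06 ± 0.59 CPM and 8.30 ± 2.00 CPM (SD, n = 7 each), and the values that chose the gene were a log2 fold change of −1.02 ± 0.14 (SE) with an adjusted p of 0.000505. Without each of the 14 mice in turn the log2 fold change stayed between −1.08 and −0.91. The counts behind these levels were 51 to 114 and 112 to 242 per mouse. Of all genes tested, 1.77% had genotypes that did not overlap and 6.77% were called.

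Pttg1 encodes securin, which holds separase in check until chromosomes part in anaphase. It was at 9.3, 9.1, 11.3, 10.2, 0.9, 6.8 and 9.0 CPM in LPAR2-/- mice 1 to 7. In WT mice 1 to 7 it was at 19.3, 19.5, 20.6, 18.5, 8.8, 17.9 and 19.8 CPM. In both genotypes mouse 5 stood far below the 6 others, and the value of WT mouse 5 lay inside the range of the mice labelled LPAR2-/-, so that the groups overlapped. The means over all mice were 8.08 ± 3.44 CPM and 17.8 ± 4.1 CPM (SD, n = 7 each), and the log2 fold change was −1.13 ± 0.33 (SE) with an adjusted p of 0.0568, so that the gene did not pass the threshold in edgeR.

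Away from mouse 5, the levels of Pttg1 were narrow. The other 6 WT mice had 19.3 ± 1.0 CPM and the other 6 mice labelled LPAR2-/- 9.28 ± 1.48 CPM (SD), the latter 0.481 times the former. WT mouse 5 had 0.457 times the mean of the other WT mice, a ratio close to that between the genotypes. LPAR2-/- mouse 5 had 17 counts in all, 0.0964 times the mean of the other 6 of its group. Without both mice numbered 5, a fit added after these values had been seen, the log2 fold change was −1.05 with an adjusted p of 1.77e-05. Cdkn1a showed no such steps, with 4.68 CPM in LPAR2-/- mouse 5 and 7.28 CPM in WT mouse 5, both within the range of the other mice of the group.

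**Figure D1:**
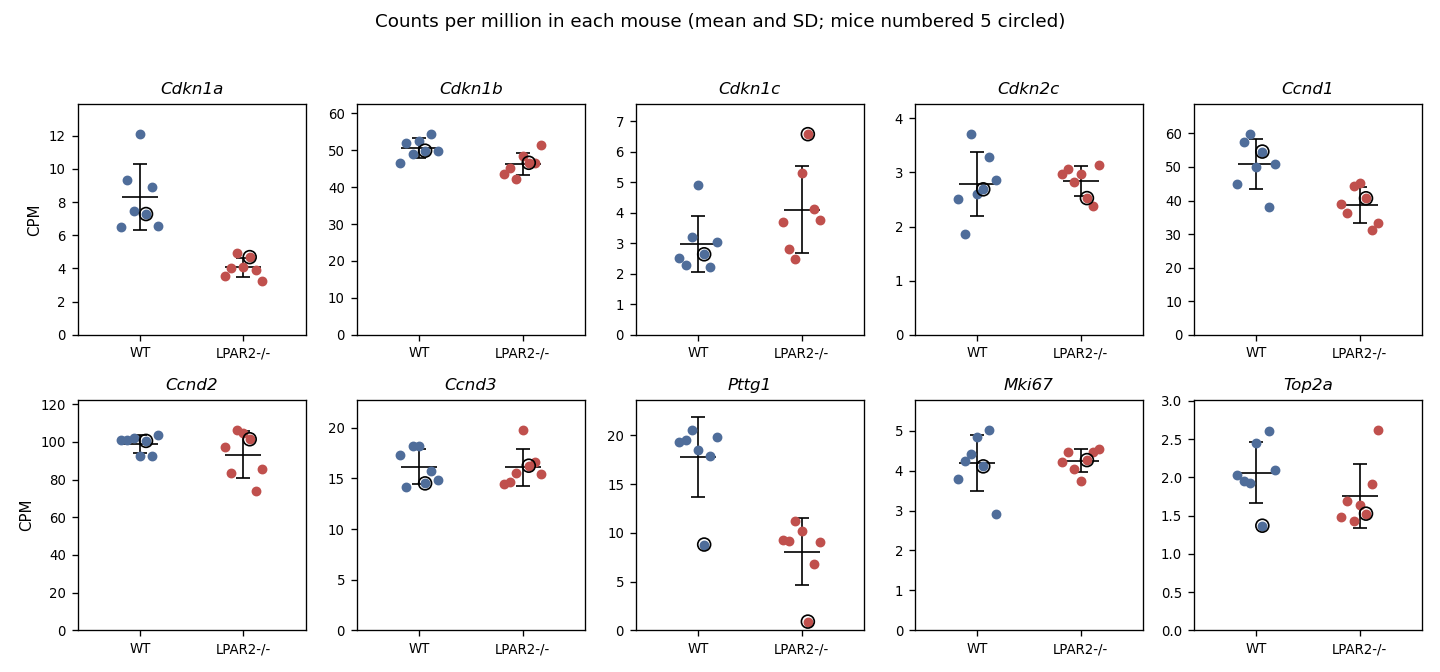
CPM of the 10 members in each mouse (vertical axes, linear from 0), with WT mice in blue and mice labelled LPAR2-/- in red. Black lines give the mean and SD of 7 mice and black circles mark the mice numbered 5, which stand below the others for Pttg1 (0.9 and 8.8 CPM).

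Of the 8 other members, 1 was called, and it was lower in the mice labelled LPAR2-/-. This was Ccnd1, which encodes cyclin D1, an activator of CDK4 and CDK6 in G1. Over all genes tested, 6.77% were called, 3.46% lower and 3.32% higher in mice labelled LPAR2-/-, and 1 of 8 is too few to set against these shares. With upper quartile normalization the calls over all genes split into 616 higher and 377 lower, in place of 494 and 515. The median log2 fold change of the 8 was −0.04, beside 0.003 over all genes tested.

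Ccnd1 was at 38.9, 36.2, 44.4, 45.3, 40.7, 31.2 and 33.4 CPM in LPAR2-/- mice 1 to 7 and at 44.9, 57.4, 59.8, 49.9, 54.6, 38.1 and 51.0 CPM in WT mice 1 to 7. All 7 mice labelled LPAR2-/- were below the WT median, but WT mouse 6 and WT mouse 1 reached into their range. The log2 fold change was −0.40 ± 0.10 (SE, 95% interval −0.61 to −0.18, adjusted p = 0.0307), a level lower by a factor of 1.32. Ccnd1 no longer passed in 8 of 14 fits with a mouse removed, those without WT mice 2, 3, 4 and 5 and those without LPAR2-/- mice 1, 2, 6 and 7 (adjusted p from 0.0520 to 0.0710), whereas the log2 fold change stayed between −0.45 and −0.35. Without both mice numbered 5 it was −0.39 with an adjusted p of 0.0939.

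Ccnd1 was set beside markers of oligodendrocyte precursors, cells that can still divide. Their sum over 8 genes was 173 to 248 CPM (median 198) in mice labelled LPAR2-/- and 206 to 253 CPM (median 230) in WT mice. Of these 8 markers 4 lay higher and 4 lower in mice labelled LPAR2-/-. Their log2 fold changes ran from −0.66 to 0.65 around a median of −0.006. The gene at −0.66, Gpr17, a receptor of maturing precursors, was the only one called (40.9 and 64.7 CPM, adjusted p = 0.00287). That is 12.5% of the 8, beside 6.77% of all genes tested. At an unadjusted p under 0.05 in edgeR were 4 of 8, beside 22.4% of all genes. So few markers are too few to set against these shares. Gpr17 is itself part of the sum and had the largest difference in mean CPM of the 8. Across the 7 mice labelled LPAR2-/-, the log2 sum and log2 CPM of Ccnd1 had a Pearson r of 0.95 (exact permutation p = 0.00159) and a Spearman rho of 0.96 (exact permutation p = 0.00278), and r was 0.94 without the 2 mice farthest from the median. Across the 7 WT mice r was 0.48 (exact permutation p = 0.279) and rho 0.36 (exact permutation p = 0.444), and r was 0.60 without the 2 farthest mice. Ccnd2, which was not called, had about the same relation to this sum in mice labelled LPAR2-/- (r = 0.93, exact permutation p = 0.00456, rho = 0.96, exact permutation p = 0.00278, r = 0.96 without the 2 farthest mice), and r was −0.18 in WT mice (exact permutation p = 0.700, rho = 0.11, exact permutation p = 0.840, r = 0.59 without the 2 farthest mice). Mki67 ran the other way in mice labelled LPAR2-/- (r = −0.83, exact permutation p = 0.0188, rho = −0.89, exact permutation p = 0.0123, r = −0.76 without the 2 farthest mice), and in WT mice r was 0.23 (exact permutation p = 0.627, rho = 0.36, exact permutation p = 0.444, r = −0.20 without the 2 farthest mice). The adjusted p over 140 such relations was 0.111 for the r of Ccnd1 and 0.0972 for its rho, 0.160 and 0.0972 for Ccnd2, and 0.503 and 0.344 for Mki67, so that none passed, and the part of these cells in the difference of Ccnd1 was not tested.

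Ccnd2 and Ccnd3, the other D-type cyclins, were not called. Ccnd2 ranged from 73.7 to 106.4 CPM (median 97.2) in mice labelled LPAR2-/- and from 92.2 to 103.6 CPM (median 100.7) in WT mice. Its log2 fold change was −0.08 (95% interval −0.23 to 0.07, adjusted p = 0.517), with an SD of 12.4 CPM in mice labelled LPAR2-/- and 4.63 CPM in WT mice. Ccnd3 ranged from 14.4 to 19.8 CPM (median 15.5) and from 14.2 to 18.3 CPM (median 15.8), with a log2 fold change of −0.004 (95% interval −0.17 to 0.17, adjusted p = 0.986). The interval of Ccnd3 leaves room for a difference of less than 0.2 on the log2 scale in either direction.

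Among the CDK inhibitors besides Cdkn1a, none of Cdkn1b, Cdkn1c and Cdkn2c was called. Cdkn1b, which restrains cells before S phase and is kept high in many resting cells, had 43.5, 45.2, 42.1, 48.4, 46.6, 46.4 and 51.4 CPM in LPAR2-/- mice 1 to 7 and 46.4, 51.9, 49.1, 52.6, 49.9, 54.3 and 49.8 CPM in WT mice 1 to 7. Of the mice labelled LPAR2-/-, 6 of 7 lay below the WT median. Its difference was small (log2 fold change −0.13, 95% interval −0.23 to −0.03, unadjusted p = 0.0132) and did not pass the adjusted threshold in edgeR (adjusted p = 0.110). Without LPAR2-/- mouse 7, the highest of its group, the adjusted p was 0.0485.

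Cdkn1c, an imprinted inhibitor of the same family, was the member that lay highest in the mice labelled LPAR2-/- relative to WT. It was at 3.7, 2.8, 2.5, 5.3, 6.6, 4.1 and 3.8 CPM in LPAR2-/- mice 1 to 7 and at 2.5, 2.3, 3.2, 4.9, 2.6, 2.2 and 3.0 CPM in WT mice 1 to 7. The groups overlapped widely, and the log2 fold change of 0.47 (95% interval −0.004 to 0.93, adjusted p = 0.227) did not pass the test. The highest mouse of each genotype, LPAR2-/- mouse 5 and WT mouse 4, was also the one with the highest sum of 6 meningeal markers (348 and 263 CPM, against group medians of 209 and 97.4 CPM). Of these markers 5 of 6 lay higher in mice labelled LPAR2-/-, and the median of their log2 fold changes was 0.84. The only one called was Lum (log2 fold change 0.54, adjusted p = 0.0132), 16.7% of the 6 beside 6.77% of all genes tested. At an unadjusted p under 0.05 in edgeR were 4 of 6, beside 22.4% of all genes. With mouse number as a block 0 of the 6 were called, beside 3.93% of all genes. So few markers are too few to set against these shares. Across the 7 mice labelled LPAR2-/-, log2 CPM of Cdkn1c and the log2 sum of these markers had a Pearson r of 0.93 (exact permutation p = 0.00238) and a Spearman rho of 0.96 (exact permutation p = 0.00278), and r was 0.93 without the 2 mice farthest from the median. Across the 7 WT mice r was 0.61 (exact permutation p = 0.151) and rho 0.21 (exact permutation p = 0.662), and without the 2 farthest mice r was −0.18, so that it rested on those mice. Vessel markers were compared with Cdkn1c as well. For pericytes and smooth muscle, whose 6 markers had median sums of 182 CPM in mice labelled LPAR2-/- and 113 CPM in WT mice with overlapping ranges, r was 0.84 in mice labelled LPAR2-/- (exact permutation p = 0.0262, rho = 0.57, exact permutation p = 0.200) and 0.79 in WT mice (exact permutation p = 0.0294, rho = 0.54, exact permutation p = 0.236). Without the 2 farthest mice these r were 0.49 and −0.09. For endothelium r was 0.68 in mice labelled LPAR2-/- (exact permutation p = 0.0913, rho = 0.64, exact permutation p = 0.139) and 0.80 in WT mice (exact permutation p = 0.0347, rho = 0.68, exact permutation p = 0.110), and 0.51 and 0.11 without the 2 farthest mice. None of the 140 relations of 10 members with 7 marker lists in 2 genotypes passed after adjustment (adjusted p of the meningeal r in mice labelled LPAR2-/- = 0.111 and of its rho = 0.0972, the smallest of all 140), and the part of meninges and vessels in the difference of Cdkn1c was not tested. The smallest unadjusted p of r belonged to Ccnd3 and markers of pericytes and smooth muscle in WT mice (r = 0.89, exact permutation p = 0.00139, adjusted p = 0.111, rho = 0.96, exact permutation p = 0.00278, r = 0.71 without the 2 farthest mice), and in mice labelled LPAR2-/- that r was 0.37 (exact permutation p = 0.447, rho = 0, exact permutation p = 1, r = 0.05 without the 2 farthest mice). Cdkn1a and the meningeal sum had r = 0.81 in WT mice (exact permutation p = 0.0272, adjusted p = 0.503, rho = 0.82, exact permutation p = 0.0341, r = 0.70 without the 2 farthest mice) and r = −0.24 in mice labelled LPAR2-/- (exact permutation p = 0.607, rho = 0.04, exact permutation p = 0.963, r = 0.25 without the 2 farthest mice). Cdkn1a and the sum of oligodendrocyte precursor markers had r = 0.71 in mice labelled LPAR2-/- (exact permutation p = 0.0794, adjusted p = 0.654, rho = 0.79, exact permutation p = 0.0480, r = 0.54 without the 2 farthest mice) and r = 0.57 in WT mice (exact permutation p = 0.183, rho = 0.61, exact permutation p = 0.167, r = −0.31 without the 2 farthest mice).

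Cdkn2c, an inhibitor of CDK4 and CDK6, had 2.4 to 3.1 CPM (median 3.0) in mice labelled LPAR2-/- and 1.9 to 3.7 CPM (median 2.7) in WT mice. Its log2 fold change was 0.03 (95% interval −0.25 to 0.32, adjusted p = 0.917). The WT range enclosed the range of the mice labelled LPAR2-/-.

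Mki67 and Top2a, whose products coat mitotic chromosomes and untangle DNA, respectively, are used to count dividing cells. Mki67 was at 4.2, 4.5, 4.0, 3.7, 4.3, 4.5 and 4.5 CPM in LPAR2-/- mice 1 to 7 and at 3.8, 4.2, 4.4, 4.9, 4.1, 5.0 and 2.9 CPM in WT mice 1 to 7. The WT mice enclosed all mice labelled LPAR2-/-, and the log2 fold change was 0.02 (95% interval −0.21 to 0.25, adjusted p = 0.955). Top2a was at 1.5, 1.7, 1.4, 1.6, 1.5, 1.9 and 2.6 CPM in LPAR2-/- mice 1 to 7 and at 2.0, 2.0, 1.9, 2.5, 1.4, 2.6 and 2.1 CPM in WT mice 1 to 7. Of the mice labelled LPAR2-/-, 6 of 7 were below the WT median, but mouse 7 was the highest of all, and the log2 fold change of −0.24 (95% interval −0.58 to 0.11, adjusted p = 0.415) was not called. A change of the size of Ccnd1 lies within the interval of Top2a but not within that of Mki67. Top2a rested on 28 to 49 counts per mouse and Mki67 on 50 to 97.

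**Figure D2:**
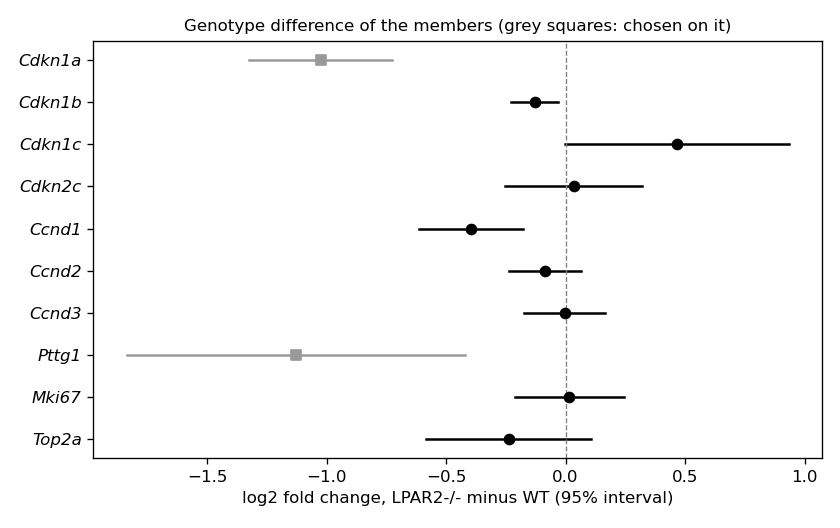
Log2 fold change of each member (mice labelled LPAR2-/- minus WT, horizontal axis) with its 95% interval from edgeR. Grey squares are Cdkn1a (−1.02) and Pttg1 (−1.13), which were chosen on this difference, and black circles are the 8 others, of which Ccnd1 (−0.40) passed the adjusted threshold.

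Levels between members were compared in RPKM, which is CPM divided by the exon length of the gene in kilobases. In WT mice the order ran from Cdkn1b (21.0 ± 1.1 RPKM, SD, n = 7) over Ccnd2 (17.1 ± 0.8), Ccnd1 (13.4 ± 2.0), Pttg1 (10.2 ± 2.3), Ccnd3 (7.15 ± 0.77), Cdkn1a (4.10 ± 0.99), Cdkn1c (1.53 ± 0.48) and Cdkn2c (1.24 ± 0.26) to Mki67 (0.416 ± 0.070) and Top2a (0.395 ± 0.077). Neighbours whose mean ± SD ranges overlapped were Ccnd1 and Pttg1, Pttg1 and Ccnd3, Cdkn1c and Cdkn2c, and Mki67 and Top2a. In mice labelled LPAR2-/- Pttg1 came after Ccnd3, at 4.65 ± 1.98 RPKM against 7.12 ± 0.80 RPKM, with overlapping SD ranges. Cdkn1a there had 2.01 ± 0.29 RPKM and came after Cdkn1c at 2.12 ± 0.73 RPKM, again with overlapping ranges. The mean RPKM of Pttg1 was above that of both proliferation markers in both genotypes, but LPAR2-/- mouse 5 had only 0.515 RPKM of Pttg1, close to the 0.372 to 0.451 RPKM of Mki67 in its group.

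No relation between Cdkn1a and Pttg1 from mouse to mouse passed the test. Across the 7 mice labelled LPAR2-/-, r was −0.38 (exact permutation p = 0.480) and rho 0.29 (exact permutation p = 0.556), and r was −0.81 without the 2 mice farthest from the Cdkn1a median. Across the 7 WT mice, r was 0.12 (exact permutation p = 0.911) and rho −0.14 (exact permutation p = 0.783), and r was −0.09 without those 2 mice. The relations of both genes with all other members came to 34 in the 2 genotypes, and none passed after adjustment (smallest adjusted p = 0.452), with 2 of 34 r and 3 of 34 rho at an unadjusted p under 0.05. Those of r were Cdkn1a with Cdkn1b in WT mice (r = 0.76, exact permutation p = 0.0490, rho = 0.79, exact permutation p = 0.0480, r = 0.87 without the 2 farthest mice) and Pttg1 with Cdkn1c in mice labelled LPAR2-/- (r = −0.71, exact permutation p = 0.0409, rho = −0.61, exact permutation p = 0.167). The latter had r = −0.24 without the 2 farthest mice and therefore rested on them. The rho of Cdkn1a with Cdkn1b was 1 of the 3, and the others were Cdkn1a with Mki67 (rho = 0.79, exact permutation p = 0.0480, r = 0.72, exact permutation p = 0.0645, r = 0.85 without the 2 farthest mice) and Pttg1 with Ccnd2 (rho = 0.82, exact permutation p = 0.0341, r = −0.02, exact permutation p = 0.997, r = 0.85 without the 2 farthest mice), both in WT mice. The adjusted p of each rho was 0.472. In mice labelled LPAR2-/- Cdkn1a and Mki67 had a rho of −0.64 (exact permutation p = 0.139) and Pttg1 and Ccnd2 a rho of 0.61 (exact permutation p = 0.167).

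The wider cell cycle lists put the same question to more genes. Of 157 genes in 7 lists, 136 passed the filter, and without Cdkn1a and Pttg1 134 remained. Of these 134 genes, 2 were called higher and 6 lower, 5.97% in all, beside 6.77% of all genes tested (3.32% higher and 3.46% lower). Their median log2 fold change was −0.004, with 64 of them above 0 and 70 below. The share called in either direction was thus near the background, and the few calls of a single direction were not compared further. The count of 8 was 2 without WT mouse 2 (Gins4 and Mau2), without WT mouse 3 (Gins4 and Mau2) and without both mice numbered 5 (Kif11 and Mau2). It was 3 without WT mouse 4 or 5 and without LPAR2-/- mouse 1, 4 or 6, 4 without LPAR2-/- mouse 2 or 7, and 5 without WT mouse 6. The share called over all genes was lower in these fits too, at 3.79 to 5.98% without 1 of these mice and 2.39% without both mice numbered 5.

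The list of G2 and mitosis held 3 of these 8 genes, and each other list held at most 1. Of its 35 tested members, 3 were called lower and 0 higher (8.57%). Of all genes tested, 6.77% were called in either direction and 3.46% lower, and 3 genes are too few to set against these shares. In the list 12 genes lay higher and 23 lower, and its median log2 fold change was −0.07. Bub1b, a kinase-like protein of the spindle checkpoint, was at 1.5 to 2.0 CPM in 5 mice labelled LPAR2-/-, at 3.07 CPM in mouse 2 and at 6.05 CPM in mouse 1, against 4.10 to 7.10 CPM (median 4.69) in WT mice. Its log2 fold change was −1.04 ± 0.29 (SE, adjusted p = 0.0408), and the call was lost in 13 of 14 fits without 1 mouse, the exception being the fit without LPAR2-/- mouse 1 (log2 fold change −1.43, adjusted p = 0.000401). Kif11, a spindle motor, had 1.25 to 1.95 CPM in mice labelled LPAR2-/- and 1.76 to 2.65 CPM in WT mice (log2 fold change −0.51 ± 0.14, adjusted p = 0.0336), and Prc1, which bundles microtubules in the midzone, 1.92 to 3.69 CPM and 2.88 to 4.20 CPM (−0.58 ± 0.15, adjusted p = 0.0304). Kif11 lost its call in 8 of the 14 fits and Prc1 in 9. With mouse number as a block, where 3.93% of all genes were called, Kif11 and Prc1 lost their calls and Bub1b kept its own. The most abundant others, Bub3 (65.2 and 63.7 CPM, log2 fold change 0.03) and Wee1 (24.5 and 24.3 CPM, 0.009), were not called. Wee1 changed sign between such fits, from −0.03 to 0.04.

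Among securin, separase and cohesin genes, 1 of 14 tested besides Pttg1 was called (7.14%, against 6.77% of all genes). This was Mau2, a loader of cohesin, at 144 to 162 CPM in mice labelled LPAR2-/- and 92.96 to 107.6 CPM in WT mice, with no overlap, as in 1.77% of all genes (log2 fold change 0.60 ± 0.04, adjusted p = 2.62e-08). Mau2 lies on chromosome 8 within 0.194 Mb of Lpar2. Rad21 (163 and 164 CPM, log2 fold change −0.01) and Pds5b (144 and 149 CPM, −0.05), a core subunit of cohesin and a regulator of it, were not called. Rad21 had the opposite sign (0.005) with upper quartile normalization.

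In the list of DNA replication, 1 of 32 tested genes was called (3.12%, against 6.77% of all genes), beside a list median of 0.03. This was Gins4, a subunit of the replicative helicase complex, at 12.0 to 16.2 CPM in mice labelled LPAR2-/- and 10.7 to 12.1 CPM in WT mice (log2 fold change 0.30 ± 0.07, adjusted p = 0.0170). Gins4 too lies on chromosome 8, 46.6 Mb from Lpar2. Mcm6 (55.4 and 48.1 CPM, log2 fold change 0.20, adjusted p = 0.251) and Cdc7 (32.1 and 34.4 CPM, −0.10, adjusted p = 0.471), a helicase subunit and the kinase that starts origins, were not called.

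Of 18 tested genes of the Rb and E2F family 1 was called (5.56%, against 6.77% of all genes). Rbl2, a pocket protein of resting cells, was at 57.2 to 65.0 CPM in mice labelled LPAR2-/- and 57.8 to 72.4 CPM in WT mice (log2 fold change −0.18 ± 0.05, adjusted p = 0.0335), with the call lost in 9 of 14 fits without 1 mouse. Rbl2 lies on chromosome 8 as well, 21.2 Mb from Lpar2. Other tested list genes on chromosome 8 were not called, namely Mcm5, Orc6, E2f4, Tfdp1, Gins2, Gins3 and Cdt1. Their adjusted p values in edgeR ran from 0.150 (Gins3) to 0.995 (Orc6). The share called on chromosome 8 over all genes was not counted, and the part of position in these calls was not tested. Rbbp4 (173 and 177 CPM, log2 fold change −0.04) and E2f3 (52.6 and 53.3 CPM, −0.02) were not called. E2f3 reached a value of 0.0002 without LPAR2-/- mouse 4.

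Since Cdkn1a is a p53 target, a list of p53 and its targets was set beside it. Of its 23 tested genes 1 was called (4.35%, beside 6.77% of all genes tested), a count too small to set against that share, and the list median was 0.0003. Zmat3 was at 63.6 to 80.8 CPM in mice labelled LPAR2-/- and 75.4 to 90.2 CPM in WT mice (log2 fold change −0.21 ± 0.06, adjusted p = 0.0375), with the call lost in 9 of 14 fits without 1 mouse. Plk2 (154 and 166 CPM, log2 fold change −0.11, adjusted p = 0.168) and Ei24 (125 CPM in both genotypes, −0.004) were not called. Ei24 changed sign with upper quartile normalization (0.02). In the list, 12 genes lay higher and 11 lower.

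Among the remaining inhibitors and kinases, Cdkn2d (35.7 and 34.8 CPM, log2 fold change 0.04) and Cdk4 (50.6 and 48.0 CPM, 0.07) were the most abundant and were not called. A further 21 list genes had too few counts to be tested. Among them were Cdkn2a (0 to 3 counts per mouse), Cdk6 (1 to 6), Ccnb1 (0 to 9) and Aurkb (0 to 12). In the edgeR fit without that filter, which held 20115 genes, 0 of the 21 were called (smallest adjusted p = 0.0705), beside 4.27% of all genes, and 2 of 21 had an unadjusted p under 0.05, beside 18.3% of all genes. No other tool was run on them. Both lay lower in mice labelled LPAR2-/-, and their number was below the background. Sgol1, which protects cohesin at centromeres, was at 0.174 ± 0.103 and 0.378 ± 0.114 CPM (SD, n = 7 each) on 1 to 11 counts per mouse, with 6 of 7 mice labelled LPAR2-/- below every WT mouse (log2 fold change −1.11, adjusted p = 0.0705 in edgeR). Hmmr, a spindle protein, was at 0.294 ± 0.038 and 0.476 ± 0.187 CPM on 3 to 13 counts per mouse (log2 fold change −0.69, adjusted p = 0.187 in edgeR). The summed CPM of the 78 genes of DNA replication and of G2 and mitosis was 529 to 578 in mice labelled LPAR2-/- (median 535) and 529 to 558 in WT mice (median 537), so that the ranges overlapped almost entirely. That sum is weighted to abundant genes such as Bub3 (65.2 and 63.7 CPM) and Mcm6 (55.4 and 48.1 CPM). Genes of low level weigh little in it, such as Top2a (1.76 and 2.06 CPM) and Kif11 (1.56 and 2.23 CPM). It therefore could not show a change confined to such genes. The markers of adult neurogenesis summed to 236 to 329 CPM and 256 to 358 CPM, and 0 of these 8 genes was called in edgeR, with 1 of 8 at an unadjusted p under 0.05 (22.4% of all genes), 1 called by DESeq2 (9.35% of all genes) and 0 by limma (6.65%).

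**Figure D3:**
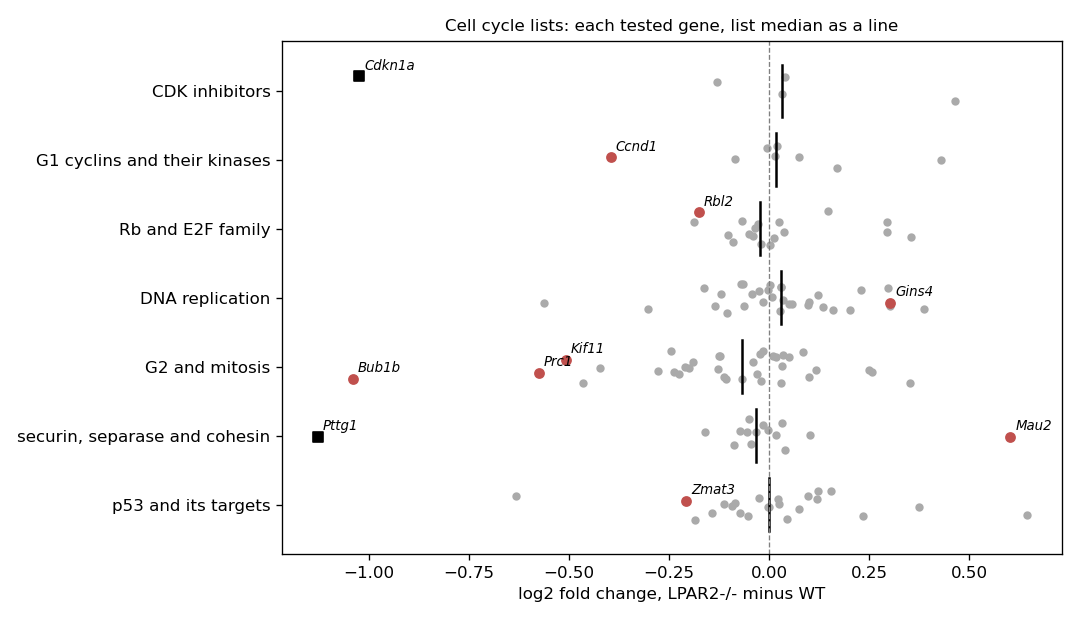
Log2 fold change (mice labelled LPAR2-/- minus WT, horizontal axis) of the 136 tested genes of 7 cell cycle lists, 1 point per gene and a black line at each list's median. Red points are the 8 genes called in edgeR, black squares are Cdkn1a and Pttg1, and the medians lie between −0.07 and 0.03.

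Position in the genome was a feature the choice of members did not use. Cdkn1a lies at chr17:29090986-29100722 on the plus strand and Pttg1 at chr11:43420248-43426248 on the minus strand of mm10, both as gene spans of the counts table. Within 5 Mb of Cdkn1a, 15 of 226 other tested genes were called higher and 9 lower (10.6%), and within 5 Mb of Pttg1 1 of 26 was called higher and 3 lower (15.4%), beside 6.77% of all genes. Within 2 Mb the shares were 13.7% of 51 and 7.69% of 13 genes, and within 10 Mb 9.64% of 363 and 8.6% of 93.

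The called genes with the largest differences near Cdkn1a were Dnah8, an axonemal dynein (3.09 ± 1.84 and 0.770 ± 0.231 CPM, log2 fold change 2.00), Glo1, a detoxifying glyoxalase (138 ± 58 and 67.8 ± 1.9 CPM, 1.03), Umodl1 (5.47 ± 0.95 and 3.59 ± 0.55 CPM, 0.61) and Dusp1, a MAP kinase phosphatase induced by activity (8.996 ± 1.654 and 12.7 ± 2.8 CPM, −0.50), each as mean ± SD in mice labelled LPAR2-/- and in WT mice. Their adjusted p values in edgeR were 0.0144, 0.0200, 0.00847 and 0.0492. The first 3 passed in all 14 fits without 1 mouse and Dusp1 in 5. Dnah8 and Glo1 lost their calls without both mice numbered 5, and Glo1 also with mouse number as a block. Glo1 varied far more among the mice labelled LPAR2-/- than among WT mice.

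Near Pttg1 the genes called lower were Ublcp1 (15.6 ± 1.7 and 21.4 ± 2.1 CPM, log2 fold change −0.45), Med7 (17.2 ± 0.5 and 19.7 ± 1.7 CPM, −0.20) and Clint1 (77.8 ± 1.2 and 83.1 ± 2.0 CPM, −0.10). Their adjusted p values in edgeR were 0.00299, 0.0457 and 0.0490. Ublcp1 passed in all 14 fits without 1 mouse, Med7 in 2 and Clint1 in 0. Ublcp1, a phosphatase gene 1.03 Mb from Pttg1, was lowest in mouse 5 of both genotypes, at 12.8 CPM against 14.9 to 17.6 CPM in the other mice labelled LPAR2-/- and at 16.96 CPM against 21.4 to 23.7 CPM in the other WT mice. As with Pttg1, WT mouse 5 lay within the range of the mice labelled LPAR2-/-. With genotype means removed, its r with Pttg1 over 14 mice was 0.78, rank 6 among all genes tested, and 0.46 over the 12 mice other than those numbered 5. Mouse 5 was the lowest of both genotypes in 165 of all 14897 genes tested (1.11%), a count made after the values had been seen. For Med7 and Clint1 the r with Pttg1 was 0.05 and 0.07.

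**Figure D4:**
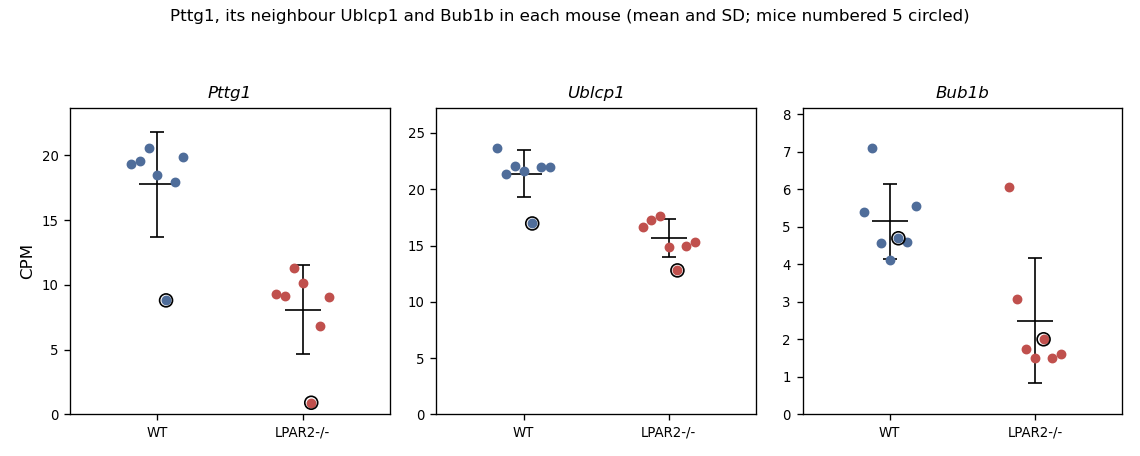
CPM of Pttg1, of Ublcp1, which lies 1.03 Mb away on chromosome 11, and of Bub1b on chromosome 2 in each mouse (vertical axes, linear from 0), with WT mice in blue, mice labelled LPAR2-/- in red, and black lines for the mean and SD of 7 mice. The circled mice numbered 5 are the lowest of their genotype for Pttg1 and Ublcp1, and Bub1b is at 6.05 CPM in LPAR2-/- mouse 1 against at most 3.07 CPM in the other 6.

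The genes most like Cdkn1a over the 14 mice, by Pearson r of log2 CPM with genotype means removed, were Ctnnd1 (r = 0.88), Magt1 (0.88), 3110056K07Rik (0.86), Idua (0.86) and Clic3 (0.86). Of these, Idua was itself called (25.7 and 32.5 CPM, log2 fold change −0.34, adjusted p = 0.000456). The r with Cdkn1a were not computed again without WT mouse 4, which had the highest Cdkn1a (12.1 CPM). Among the fits without 1 mouse, the one without WT mouse 4 gave the highest log2 fold change of Cdkn1a. The same held for Ctnnd1, Magt1, 3110056K07Rik, Idua and Clic3. How far these r rested on that mouse was therefore not tested. The genes most like Pttg1 were Nudt16 (0.83), 9330102E08Rik (0.81), Ddias (0.81), Gpnmb (0.80) and Zfp691 (0.78). Of these, Ddias was called, in the opposite direction (1.51 and 1.02 CPM, log2 fold change 0.56, adjusted p = 0.0344). The points of each r are the same 14 libraries, none of these 10 genes belongs to the cell cycle lists, and the r between Cdkn1a and Pttg1 was −0.16. Without both mice numbered 5, the r with Pttg1 over the other 12 mice was 0.44 for Nudt16, −0.03 for 9330102E08Rik, 0.06 for Ddias, −0.21 for Gpnmb and 0.21 for Zfp691, so that the likeness to Pttg1 rested in large part on those mice.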

How the data were processed

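Hippocampal RNA of 14 mice was sequenced. The authors used cutadapt 1.18 for trimming, STAR for alignment to mm10 and featureCounts 1.6.3 for counting exonic reads of the reverse strand (setting 2) by gene. The deposited counts are raw reads per gene without normalization, 15434620 to 23258949 per mouse, and a second deposited table of normalized values was not used here. The study describes ribosomal depletion, while the labels name a kit without it. A count of 0 allows up to 3 counts, for counting error only.

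Groups came from the labels. Of 24421 genes, 14897 passed filterByExpr of edgeR 4.0.16 (R 4.3.3) and were tested by the robust quasi-likelihood F test after TMM, 7 against 7 mice without covariates, with Benjamini-Hochberg adjustment over all of them. Nothing says that mice came from separate litters, and p-values measure the spread between these mice. CPM and RPKM used TMM library sizes, and 2 was the prior count for log2 values. Correlations used exact two-sided permutation over all pairings of 7 mice, whose smallest p is 0.000397. Alternatives used DESeq2 1.42.0 and limma 3.58.1. The procedures were tested on simulated data. No library was a copy of another.

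The members, the lists and the tests were chosen with earlier results of these data known. Named were the members, Lpar2, from each list the called genes (at most 5) and the 2 most abundant others, the 5 genes most like Cdkn1a and Pttg1, and the called genes within 5 Mb of them (at most 4), of which 1 is not reported here. Gpr17, Lum, Sgol1, Hmmr, Ssc4d, Cdkn2a, Cdk6, Ccnb1 and Aurkb were named after their values had been seen. Promoters came from RefSeq (GRCm38.p6), where Wapl, Sgo1 and Sgo2a also gave the older names used in the counts table. Marker sums and the fit without both mice numbered 5 were added after the values had been seen.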

Additional observations from a re-analysis of the deposited data

Results flagged for a closer look

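The following mice stood apart from the other mice of their genotype, in that the gap to the next mouse took a larger part of the whole range of the 7 than Dixon's 95% critical value. Of 38 groups of 7 mice (19 genes in 2 genotypes), 8 had such a mouse, and chance alone flags about 1 in 20. Pttg1 was lowest in mouse 5 of both genotypes, at 0.895 CPM (next 6.81) in the mouse labelled LPAR2-/- and at 8.80 CPM (next 17.9) in the WT mouse, and Ublcp1 was lowest in WT mouse 5 at 16.96 CPM (next 21.4). Bub1b was highest in LPAR2-/- mouse 1 at 6.05 CPM (next 3.07), Prc1 in LPAR2-/- mouse 2 at 3.69 CPM (next 2.63), Top2a in LPAR2-/- mouse 7 at 2.62 CPM (next 1.91) and Ccnd3 in LPAR2-/- mouse 4 at 19.8 CPM (next 16.6). Cdkn1c was highest in WT mouse 4 at 4.90 CPM (next 3.20).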

How the results depend on the processing

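The median log2 fold change of all genes was 0.0029, and it was farthest from that with upper quartile normalization (0.023), which called 616 genes higher and 377 lower. Cdkn1a kept its direction and its side of the threshold under all alternatives (log2 fold change −1.09 to −0.91). Pttg1 was called by DESeq2 (−1.14, adjusted p = 0.0364) and without both mice numbered 5 (−1.05), and ranged from −1.25 to −0.93 without single mice (adjusted p = 0.0440 without WT mouse 5 and 0.00734 without LPAR2-/- mouse 5, over 0.05 in the other 12 fits). Pttg1 was not called by limma (−1.37, adjusted p = 0.106). In edgeR it also missed the threshold without the filter (adjusted p = 0.0916) and with upper quartile normalization (0.0575). The same held with DESeq2 size factors (0.0566) and with at least 10 counts in every library (0.0547). Residual correlations between mice of the same number ran from −0.33 to 0.31, with 3 of 7 over 0.1. Mice of different numbers were not compared in this way, so whether the numbers pair the mice was not settled. In a fit with mouse number as replicate block, Pttg1 was at −1.24 (adjusted p = 0.0174), 5 list genes besides Cdkn1a and Pttg1 were called in place of 8, and over all genes 314 were called higher and 272 lower in place of 494 and 515.

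Without both mice numbered 5, 0 of the other members and 2 list genes were called, as were 196 genes higher and 160 lower over all. Without single mice, 0 to 1 other members, 2 to 7 list genes, and 275 to 660 genes higher and 292 to 725 lower over all were called. Among genes near 0, the sign changed for Ccnd3 (0.016 with the upper quartile, −0.061 to 0.027 without single mice), Cdkn2c (−0.047 to 0.12), Mki67 (−0.052 to 0.062), E2f3 (−0.045 to 0.00025), Wee1 (−0.033 to 0.044, and −0.024 without both mice numbered 5), Rad21 (0.0054 with the upper quartile), Ei24 (0.016 with the upper quartile, −0.016 to 0.015 without single mice), Magt1 (−0.14 to 0.0037), Clic3 (−0.13 to 0.041) and 9330102E08Rik (−0.011 to 0.032). The cause was not tested. Clint1 and Dusp1 lost their calls in most settings, and Med7 with the upper quartile, without the filter, with the block and without both mice numbered 5. With a prior count of 0.5, 0 relations passed (smallest adjusted p = 0.455), and Ssc4d took the place of Zfp691 (r = 0.79). The low counts of Top2a, Kif11, Prc1 and Bub1b limit what can be seen of dividing cells.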
